A study of Mus musculus with 144 samples.

Results

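The iron and heme handling genes described here are 10 genes of iron storage, uptake, export, sensing and heme breakdown, read in single cells of the mouse retina. They are Fth1, Ftl1 and Ncoa4 (storage and its release), Tfrc, Slc11a1 and Slc11a2 (uptake and release from endosomes and lysosomes), Slc40a1 (export), Hmox1 and Blvrb (heme breakdown) and Aco1 (sensing). The members were taken by gene symbol from the deposited expression table, which holds 55364 rows and 55254 symbols, and each of the 10 matched 1 row. A gene counted as measured when it reached 1 FPKM in at least 10% of the cells, which held for 8679 genes and for 9 of the 10 members. Tfrc was the exception, with 1 FPKM or more in 11 cells. FPKM is the number of fragments assigned to a gene, scaled to the length of its exons and to the reads assigned in that cell. A comparison of levels between genes therefore rests on the exon length used for each.

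All cells came from mice of the Iba1-EGFP strain aged 16 weeks, in which a green fluorescent reporter marks cells that express Iba1, as microglia and other macrophages do, and each well received a single sorted cell. Of these, 54 came from untreated mice, 54 were taken on day 2 and 36 on day 4 after the optic nerve had been crushed, which injures axons of the retina's ganglion cells. On each of 3 plates there were 18, 18 and 12 cells of these groups, in separate rows of wells, so that the effects of well position and of time cannot be told apart. Animals are not named in the labels, so a time point is 1 sample of cells here, and cells were not tested against each other as replicates. An SD given here is the spread between cells, and an interval covers counting error only.

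Cells keep iron in a hollow shell of ferritin built from a heavy chain, which oxidises iron, and a light chain, which helps the mineral core to form. Transferrin receptor brings iron in, ferroportin is the exporter, and macrophages add a further source by breaking down heme with heme oxygenase, which sets free iron and biliverdin. Much of this is set at the level of RNA. When iron is scarce, iron regulatory proteins bind hairpins called iron-responsive elements, which blocks translation when the hairpin is in the 5′ UTR and protects the RNA from decay when it is in the 3′ UTR. In the retina, microglia and macrophages take up debris and heme after injury, and ferritin RNA is abundant in microglia.

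The hairpins of 5 members are shown because the RNA level measured here is under this control in the transferrin receptor and can part from the protein level in the ferritins and ferroportin. Each was read from the GENCODE M21 transcripts (GRCm38) as DNA letters, 5′ to 3′ on the strand of the gene. Capitals mark the loop CAGTGN, which is preceded by a C and 5 bases and followed by 5 bases that pair with them, G with T allowed. The sites in the 5′ UTR lie at chr19:9982732-9982761 on the plus strand for Fth1, chr7:45459778-45459807 on the minus strand for Ftl1 and chr1:45925464-45925493 on the minus strand for Slc40a1.
Fth1: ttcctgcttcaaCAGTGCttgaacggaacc
Ftl1: gtcttgcttcaaCAGTGTttgaacggaaca
Slc40a1: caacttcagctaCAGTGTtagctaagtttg
Both ferritin chains carry the same 5 bases on each side of the loop, while Slc40a1 has another stem.

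In the 3′ UTR of Tfrc, on the plus strand of chromosome 16, the search found 4 sites, at chr16:32631219-32631248, chr16:32631598-32631627, chr16:32631663-32631692 and chr16:32631710-32631739. In Slc11a2 it found 1, at chr15:100395152-100395181 on the minus strand.
Tfrc site 1: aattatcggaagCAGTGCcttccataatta
Tfrc site 2: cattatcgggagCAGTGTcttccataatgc
Tfrc site 3: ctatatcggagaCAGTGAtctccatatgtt
Tfrc site 4: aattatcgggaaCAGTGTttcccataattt
Slc11a2: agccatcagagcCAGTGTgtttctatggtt
Of the 5 stem positions, all pair in the Fth1, Ftl1, Slc40a1 and Tfrc sites, and 4 pair in that of Slc11a2. A fully paired site was found in the 5′ UTR of 31 of 21901 protein-coding genes (0.142%), among them 3 members, and in the 3′ UTR of 129 (0.589%), among them 1 member. With at least 4 pairs, the 3′ UTR count was 872 genes (3.98%) and 2 members. The same search of the opposite strand of either UTR gave 106 genes (0.484%). A match is a description of the letters only.

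The cells matched their label as microglia. At least 3 of 11 microglia markers were at 20 FPKM or above in 54 of 54 untreated, 54 of 54 day 2 and 35 of 36 day 4 cells. Of the markers of border macrophages, the macrophages of vessels and linings, at least 3 of 8 did so in 5, 8 and 2 cells, 15 in all, called border-macrophage-like here. At least 3 markers of monocytes (of 8) did so in 0, 2 and 0 cells, of rod photoreceptors (of 10) in 4, 0 and 2, and of Müller glia (of 8) in 1, 0 and 0. Every one of 7 markers of red blood cells, hemoglobin genes included, stayed under 1 FPKM in all cells. With M for 1000000 assigned reads, depth per cell was 5.31 M at the median (0.190 to 18.9 M), with medians of 4.93, 5.32 and 5.80 M in the untreated, day 2 and day 4 groups. Genes at 1 FPKM or more numbered 2792, 3469 and 3957.5 at the median. Over all measured genes the median difference was 0.45 at day 4 and 0.21 at day 2 against untreated cells, and 0.25 at day 4 against day 2, on the log2(FPKM + 1) scale used for every difference here. The summed level of the Müller glia markers had a median of 50.8 FPKM at day 4 and 129 FPKM in untreated cells (ranges 0.144 to 1513 and 0.557 to 1942 FPKM). Of the 4 of them that were measured, the median difference of day 4 from untreated cells was -0.07, and Glul alone was called lower (4.31 at day 4 against 5.76 without crush, as mean log2 levels). The part of these features in the results below was not tested, except where a value without the border-macrophage-like cells is given.

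By mean FPKM the ferritin chains stood far above the other members. Ftl1 and Fth1 were the top pair at every time point, and among all genes of the table Ftl1 ranked 19, 17 and 21 and Fth1 26, 24 and 27 by mean FPKM in the untreated, day 2 and day 4 groups. Slc11a1 came next over all plates, with a mean of 87.7, 86.6 and 119 FPKM and larger SDs of 126, 143 and 155 FPKM. The other genes had means of at most 50.4 FPKM at any time point, made by a minority of cells. Their SDs also exceeded their means, so the order below the ferritin chains is not separated by the spread. It differed between plates as well. In untreated cells Hmox1 averaged 28.2, 25.6 and 72.9 FPKM in plates 1, 2 and 3, and Blvrb 71.5, 49.5 and 9.51 FPKM. Slc11a1 was below Blvrb in untreated cells of plate 1, at 46.1 FPKM. At day 2 in plate 3 it was below Hmox1, at 103 against 110 FPKM.

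**Figure D1:**
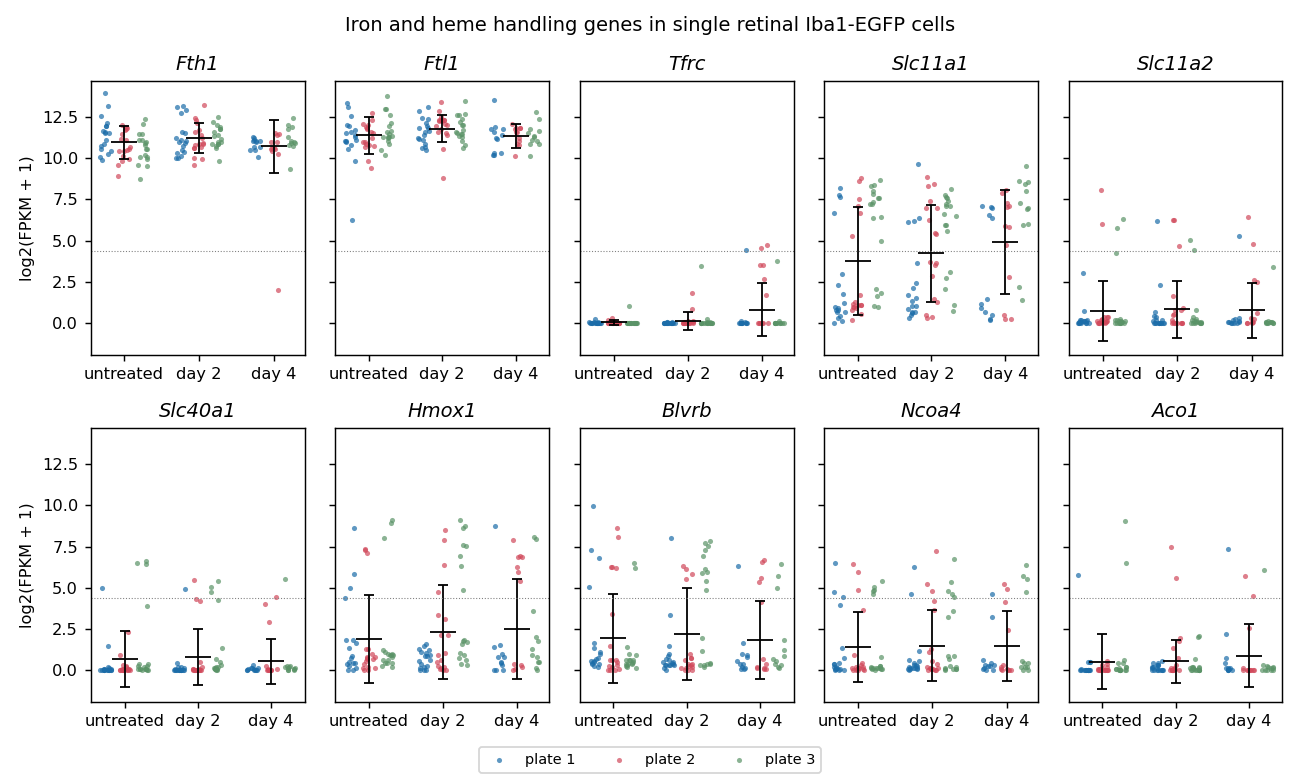
Level of each of the 10 genes as log2(FPKM + 1), 1 point per cell, coloured by plate, for untreated cells, day 2 and day 4; the horizontal lines and bars are the mean and SD over cells, and the dotted line marks 20 FPKM. Ftl1 was above the line in every cell and Fth1 in all but 1. Slc11a1 was above it in 72 cells and between 1 and 20 FPKM in 37, and the other genes were near 0 in most cells.

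Ferritin heavy chain was abundant in nearly every cell and stood within its spread at all time points. Fth1 (chr19:9980598-9985098, plus strand, GRCm38) had a lowest, median and highest level of 421, 1909 and 15714 FPKM in untreated cells, 767, 2098 and 9776 FPKM at day 2, and 2.98, 2000.3 and 5586 FPKM at day 4. The 3 ranges overlapped, and the highest cells were untreated or of day 2. Its mean log2 level was 10.96 ± 1.02 without crush (SD, 54 cells), 11.24 ± 0.89 at day 2 (54 cells) and 10.72 ± 1.60 at day 4 (36 cells). The difference of day 4 from untreated cells was -0.24 pooled and -0.60, -0.67 and 0.54 in plates 1, 2 and 3. It rested on 1 cell of day 4 in plate 2 with 2.98 FPKM, and without that cell, left out after the data were seen, the difference was 0.01. In that same cell Ftl1 was at 3649 FPKM, from 12.2 M reads. The next lowest cell of the series had 421 FPKM of Fth1.

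Ferritin light chain was higher still in FPKM, with a small excess at day 2 in every plate. Ftl1 (chr7:45457944-45459884, minus strand) had 76.6, 2673 and 14243 FPKM as lowest, median and highest level in untreated cells, 444, 3684 and 11421 FPKM at day 2, and 1144, 2680 and 11704 FPKM at day 4. The groups overlapped over most of their range, and the lowest cells were untreated or of day 2. Against untreated cells, the log2 difference at day 2 was 0.39, with 0.40, 0.61 and 0.15 in the 3 plates, where the median of all measured genes was 0.05, 0.26 and 0.29. Day 4 stood at -0.43 against day 2, with -0.35, -0.51 and -0.43 in the plates, and at -0.04 against untreated cells. None of these reached the difference of 1 in size used here as a call, and the spread between cells (SD 0.74 to 1.13) was larger than each.

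In FPKM the balance of the chains leaned to the light one in most cells. FPKM divides by exon length, which was 3469 bases for Fth1 and 1340 for Ftl1 here. As a share of assigned reads the order was the other way, with medians of 0.694% for Fth1 and 0.408% for Ftl1. In log2 terms the ratio of Fth1 to Ftl1 had a median of -0.57 without crush, -0.81 at day 2 and -0.39 at day 4, with SDs of 1.27, 1.13 and 1.90. Fth1 exceeded Ftl1 in 17 of 54 cells in the untreated group, 14 of 54 in that of day 2 and 13 of 36 in that of day 4. In plates 1, 2 and 3 the median ratio was 0.53, -0.50 and -0.76 without crush, -0.82, -0.93 and -0.65 at day 2, and -0.37, -0.75 and 0.02 at day 4. Untreated and day 4 cells thus spread more between plates than the pooled medians did between time points, and day 2 cells less. Across cells the levels of the chains were weakly related (Pearson r = 0.15 over all cells, after taking out time point, plate and the number of detected genes).

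**Figure D2:**
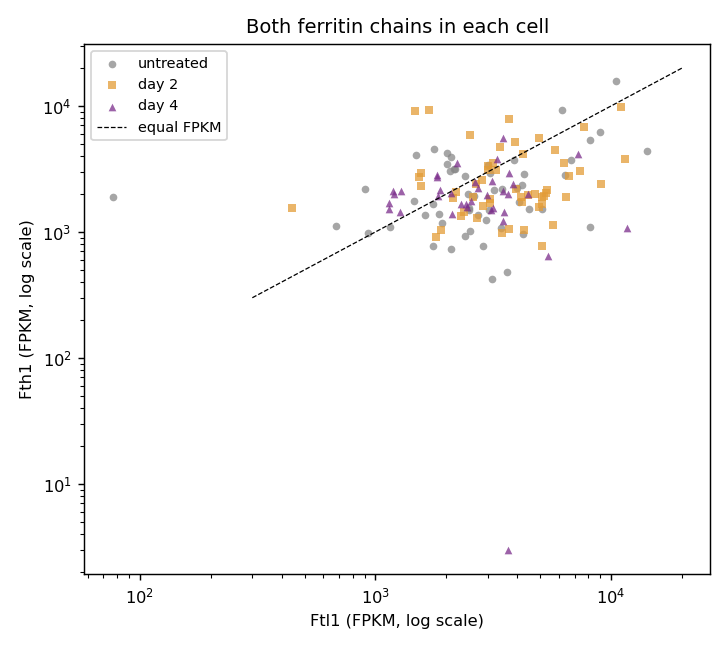
FPKM of Fth1 against Ftl1 on log axes, 1 point per cell, for untreated cells (circles), day 2 (squares) and day 4 (triangles); on the dashed line both are equal. The groups lie over each other, most points are right of the line, and 1 cell of day 4 lies apart at 2.98 FPKM of Fth1.

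How ferritin reads were counted bears on these levels. Of the values above 0, 96.5% of those of Ftl1 and 82.6% of those of Fth1 were not whole numbers of reads, and exons of Ftl1 overlap those of Gm10252 and Gm22133. In all, 10 rows followed Ftl1 across cells at r of at least 0.9, these and Ftl2-ps and Ftl1-ps1 among them, and together held a median of 88.1% as many reads as Ftl1 itself. With those rows added to Ftl1, a choice made after seeing the data, the log2 ratio of the chains became -1.50 without crush, -1.73 at day 2 and -1.32 at day 4, so its level depends on where such reads are counted. The Ftl1 differences between time points moved little, to 0.38 at day 2 and -0.05 at day 4, both against untreated cells. Fth1 had no row that followed it in this way.

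Ncoa4, the cargo receptor that carries ferritin to the lysosome for its iron to be released, was low. Ncoa4 (chr14:32159865-32179855, plus strand) had a median of 0.139, 0.198 and 0.211 FPKM and a highest value of 91.0, 147 and 80.6 FPKM in the untreated, day 2 and day 4 groups, and cells at 0 occurred in every group. It reached 20 FPKM in 11 of 54, 10 of 54 and 7 of 36 cells, and the log2 difference from untreated cells was 0.06 at day 4 and 0.11 at day 2. The groups overlapped throughout. Of its values above 0, 56.6% were not whole reads, and the row of the pseudogene Ncoa4-ps followed it with a median of 19.6% as many reads.

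Among the uptake genes, Slc11a1 was higher at day 4 by the rule for calls, and it was the only member called in any comparison. Slc11a1 (chr1:74375195-74386062, plus strand) encodes NRAMP1, which moves iron and other metal ions across the phagosome membrane of macrophages. It had a lowest, median and highest level of 0, 2.49 and 452 FPKM in untreated cells, 0.209, 11.6 and 806 FPKM at day 2, and 0.110, 71.6 and 738 FPKM at day 4. Low and high cells occurred in all groups, and those at 20 FPKM or more were 23 of 54 untreated cells (42.6%, exact Clopper-Pearson 95% interval 29.2 to 56.8), 26 of 54 at day 2 (48.1%, 34.3 to 62.2) and 23 of 36 at day 4 (63.9%, 46.2 to 79.2). Its mean log2 level was 4.90 ± 3.18 at day 4 and 3.77 ± 3.27 without crush. The difference was 1.14 pooled and 0.80, 1.70 and 0.91 in plates 1, 2 and 3.

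A difference counted as a call when its pooled size was at least 1 and its sign was the same in all 3 plates. At day 4 against untreated cells 1 of the 10 genes was called higher, where 18.9% of all measured genes were, and 0 were called lower, where 0.346% were. That share of members is no larger than the background. The 1636 genes called higher and 30 called lower became 784 and 162 once the median of all measured genes was taken off. The call of Slc11a1 also did not hold against the number of detected genes: with that number as a covariate the difference was -0.29, and minus the median of all measured genes it was 0.69. Slc11a1 correlated with the number of detected genes across cells (r = 0.48 over all cells, and 0.58, 0.51 and 0.36 within untreated cells, day 2 and day 4), over all cells more than any other of the 10 genes did. Without plate 2 the difference was 0.85, under the size of a call, and as a log2 of the mean FPKM it was 0.44. As a difference of medians over cells it was 4.37 pooled, with the other sign in plate 3.

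The plates differed in Slc11a1 more than the time points. In plates 1, 2 and 3 its mean log2 level was 2.45, 3.10 and 5.75 without crush, 2.59, 4.54 and 5.57 at day 2 and 3.25, 4.80 and 6.66 at day 4. Plate 3 was highest at every time point, with 13 of 18 untreated cells at 20 FPKM or more, against 4 and 6 of 18 in plates 1 and 2. In plates 1, 2 and 3 the median number of detected genes was 2442, 3166 and 3219.5 without crush. It was 2648.5, 4028 and 4020 at day 2 and 3563, 5057.5 and 3596.5 at day 4. The part of this number in the plate differences was not tested.

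**Figure D3:**
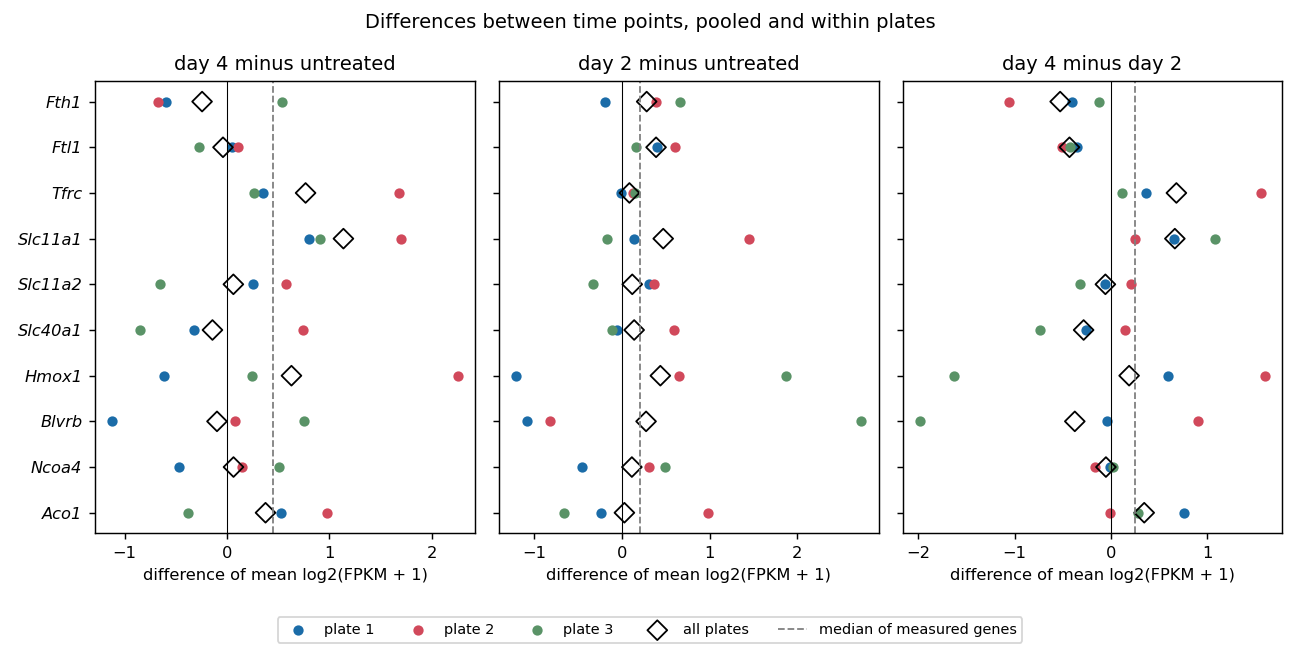
Difference of the mean log2(FPKM + 1) for each gene in day 4 minus untreated, day 2 minus untreated and day 4 minus day 2; diamonds are all cells, dots are single plates, and the dashed line is the median of all measured genes. Slc11a1 at day 4 minus untreated is the only diamond beyond 1, and the dots of Hmox1 and Blvrb lie on both sides of 0.

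Tfrc, the transferrin receptor, was near its floor, and its readings of 1 FPKM or more came mostly from day 4. This did not hold for readings above 0, which occurred in 40 cells. Values of 0 numbered 41 without crush, 39 at day 2 and 24 at day 4. Tfrc (chr16:32608920-32632794, plus strand) had a median of 0 in every group and a highest level of 1.05 FPKM in untreated cells, 9.86 FPKM at day 2 and 25.7 FPKM at day 4. It reached 1 FPKM in 1 of 54 cells in the untreated group, 2 of 54 in that of day 2 and 8 of 36 in that of day 4, of which 6 were in plate 2. At 20 FPKM there were 0 of 54 untreated cells and 0 of 54 cells of day 2, each of which allows a share of up to 5.56% by the limit of 3 counts and 6.60% by the exact interval, and 3 of 36 cells of day 4 (8.33%, interval 1.75 to 22.5). Those 3 cells held 661, 1180 and 685 reads of the gene. The log2 difference at day 4 was 0.77 against untreated cells, with 0.35, 1.68 and 0.26 in plates 1, 2 and 3, and stayed under the size of a call; the median number of detected genes at day 4 was 5057.5 in plate 2, against 3563 and 3596.5 in plates 1 and 3. As a log2 of the mean FPKM, the same difference was 1.97.

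Slc11a2, or DMT1, which carries ferrous iron out of endosomes, was high in few cells of any group. Slc11a2 (chr15:100387898-100425072, minus strand) had a median of 0.061, 0.031 and 0.037 FPKM, with highest values of 263, 74.6 and 83.7 FPKM, in the untreated, day 2 and day 4 groups. At 20 FPKM or more there were 4 of 54, 6 of 54 and 3 of 36 cells, and no group stood apart. The difference of day 4 from untreated cells was 0.06, and exons of the gene overlap those of Gm5475.

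The exporter was equally sparse. Slc40a1 (chr1:45908068-45926523, minus strand), which encodes ferroportin, had a median of 0.030, 0.038 and 0.027 FPKM and highest values of 97.5, 43.8 and 44.2 FPKM. It reached 20 FPKM in 4 of 54 cells in the untreated group, 5 of 54 in that of day 2 and 2 of 36 in that of day 4, with overlapping groups. The difference of day 4 from untreated cells was -0.14, and -0.32, 0.74 and -0.85 in the plates. All 11 of these cells were among the 129 that were not border-macrophage-like. With 0 of 15 border-macrophage-like cells, the exact interval allows a share of up to 21.8% there.

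Heme breakdown genes were strongly on in some cells of every group and near 0 in the others. Hmox1 (chr8:75093621-75100589, plus strand) encodes heme oxygenase 1, the inducible enzyme that opens the heme ring. Its lowest, median and highest levels were 0, 0.730 and 550 FPKM in untreated cells, 0, 1.06 and 544 FPKM at day 2, and 0, 0.807 and 422 FPKM at day 4. The groups overlapped throughout. Cells at 20 FPKM or more were 9 of 54 cells in the untreated group (16.7%, interval 7.92 to 29.3), 12 of 54 in that of day 2 (22.2%, 12.04 to 35.6) and 10 of 36 in that of day 4 (27.8%, 14.2 to 45.2), so these intervals overlap as well. The plates went different ways: in plates 1, 2 and 3 the high cells were 3, 3 and 3 of 18 without crush, 0, 4 and 8 of 18 at day 2 and 1, 7 and 2 of 12 at day 4. The difference of day 4 from untreated cells was 0.63 pooled, and -0.61, 2.25 and 0.25 within plates. For day 2 against untreated cells it was 0.44, and -1.21, 0.65 and 1.87 within plates.

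Blvrb (chr7:27447978-27466144, plus strand) encodes biliverdin reductase B, a reductase of biliverdin and flavins. Its lowest, median and highest levels were 0, 0.504 and 981 FPKM in untreated cells, 0, 0.473 and 262 FPKM at day 2, and 0.036, 0.518 and 99.8 FPKM at day 4. The top cells were untreated, the groups otherwise overlapped, and high cells were 11 of 54 (20.4%), 15 of 54 (27.8%) and 8 of 36 (22.2%). By plate these were 4, 5 and 2 cells of the untreated group, 1, 4 and 10 of day 2, and 1, 4 and 3 of day 4. The difference of day 2 from untreated cells was -1.08 and -0.83 in plates 1 and 2 and 2.73 in plate 3, which gave 0.28 pooled. Day 4 stood at -0.10 against untreated cells, although the mean FPKM was 15.5 ± 29.9 at day 4 and 43.5 ± 147 in untreated cells.

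**Figure D4:**
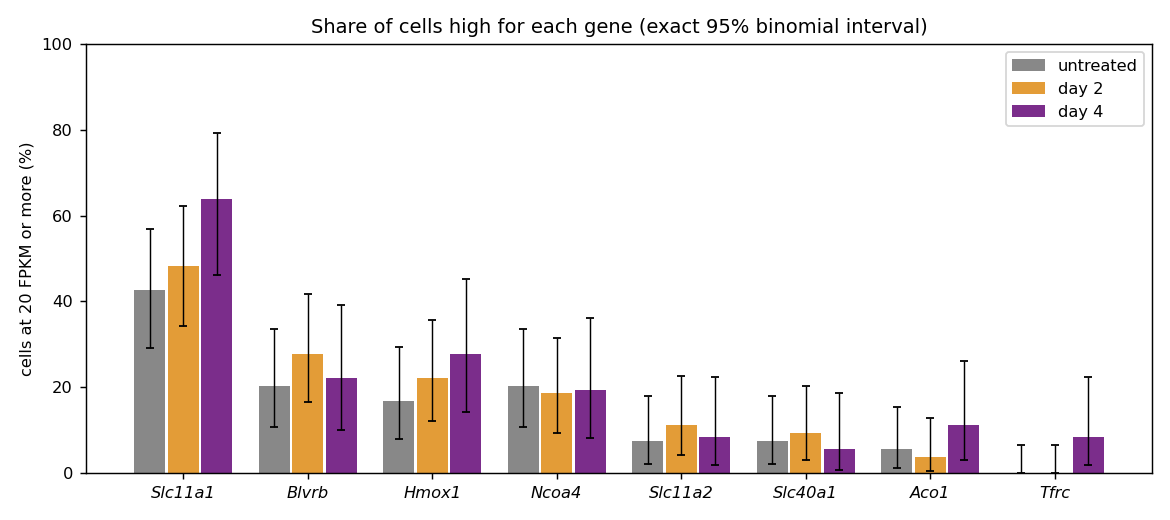
Share of cells at 20 FPKM or more for the 8 genes that were not high in nearly all cells, for untreated cells, day 2 and day 4, with exact 95% binomial intervals for counting error. Slc11a1 had the largest shares, from 42.6% to 63.9%, Tfrc had none in untreated cells and at day 2, and the intervals of the groups overlap for every gene.

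Border-macrophage-like cells held more Blvrb and Hmox1 RNA than the other cells. These cells were set apart by marker genes that do not include any of the 10 members. Blvrb was at 0.26, 76.3 and 231 FPKM (lowest, median and highest) in the 15 border-macrophage-like cells, against 0, 0.44 and 981 FPKM in the 129 other cells. It was high in 12 of 15 cells (80.0%, interval 51.9 to 95.7) against 22 of 129 (17.1%, 11.01 to 24.7). The difference of its mean log2 level was 3.96, with 2.35, 3.20 and 5.08 in plates 1, 2 and 3, and with 3.78, 3.80 and 4.95 within untreated cells, day 2 and day 4.

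Hmox1 was at 0.22, 25.4 and 489 FPKM in border-macrophage-like cells, against 0, 0.75 and 550 FPKM in the other cells, and was high in 8 of 15 (53.3%, interval 26.6 to 78.7) against 23 of 129 (17.8%, 11.7 to 25.5). Its difference was 2.69, with 2.90, 2.19 and 2.53 in the plates. Within untreated cells, day 2 and day 4 it was 4.09, 0.99 and 5.76, from 5, 8 and 2 border-macrophage-like cells, of which 3, 3 and 2 were high. The ranges of the 2 sets of cells overlapped for both genes, and high cells without these markers remained the greater number. The marker count did not grade the level, since 20 of the 100 cells with no border macrophage marker at 20 FPKM were high for Hmox1, against 3 of 26 cells with 1 marker and 0 of 3 cells with 2. All measured genes had a median difference of 0.10 between the 2 sets, and the share of them that differed as much is not given here. Across all cells Hmox1 and Blvrb correlated with the number of detected genes (r = 0.35 and 0.34). The part of that number in this contrast was not tested.

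Over all cells, the other members differed less between these sets, though not in each plate and time point. Slc11a1 stood at a mean log2 level of 5.18 in border-macrophage-like cells and 4.12 in the other cells, and its difference was -0.23, 0.84 and 0.80 in the 3 plates and 0.86, 1.95 and -1.10 within untreated cells, day 2 and day 4. Ncoa4 was at 2.51 and 1.30, with plate differences of 3.49, 0.84 and 0.19, and it differed by 3.40, 0.52 and -1.51 within the same time points. Slc40a1 was at 0.09 against 0.76, with no high cell among the 15 (interval 0 to 21.8%) and 11 among the 129 (8.53%, 4.33 to 14.7). The difference of Slc40a1 was -0.67 over all cells, and -0.30, -0.65 and -1.16 in plates 1, 2 and 3. Within untreated cells, day 2 and day 4 it was -0.60, -0.85 and -0.56. The intervals of the shares overlap and cover counting error only, so they do not decide whether the sets differ. Tfrc and Aco1 had no high cell among the 15 either. The mean log2 level differed by 0.04 for Fth1 and -0.06 for Ftl1, border-macrophage-like minus other cells. Without the border-macrophage-like cells, high cells for Hmox1 were 6 of 49 in the untreated group, 9 of 46 on day 2 and 8 of 34 on day 4, and for Blvrb 7 of 49, 9 of 46 and 6 of 34.

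**Figure D5:**
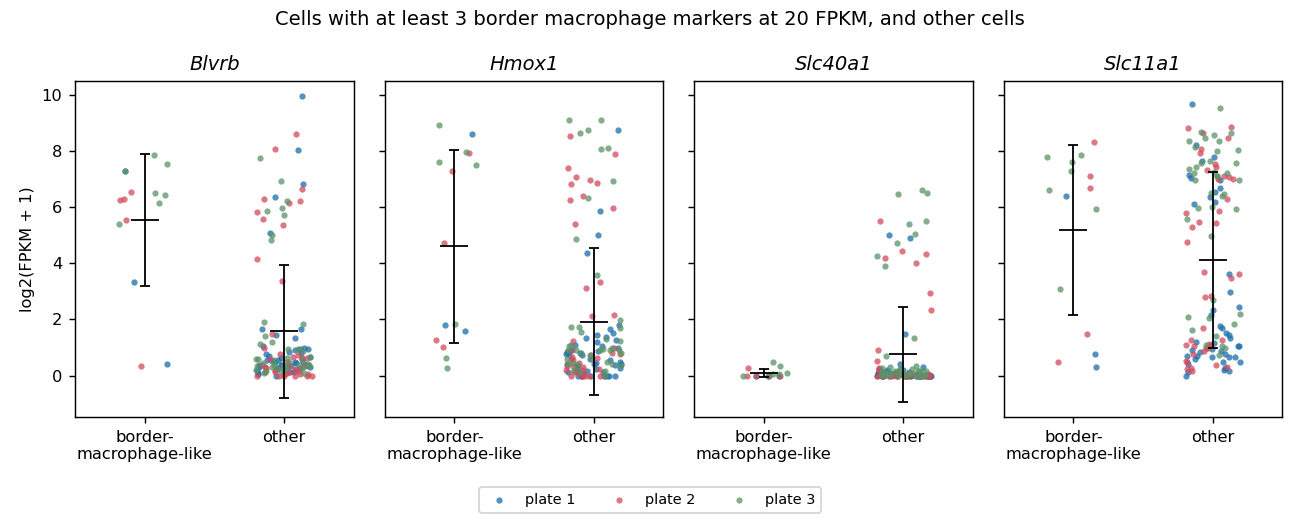
Level of Blvrb, Hmox1, Slc40a1 and Slc11a1 as log2(FPKM + 1) in the 15 border-macrophage-like cells and the 129 other cells, 1 point per cell, coloured by plate, with mean and SD. Blvrb is above 20 FPKM in 12 of the 15 cells. Slc40a1 is above it in none of them and in 11 of the 129, and the exact intervals of these 2 shares overlap.

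The sensor Aco1 was rarely detected. Aco1 (chr4:40143081-40198338, plus strand) encodes cytosolic aconitase, which becomes iron regulatory protein 1 and binds the hairpins shown above when its iron-sulphur cluster is lost. Its median was 0, 0.068 and 0.056 FPKM and its highest value 539, 175 and 161 FPKM in the untreated, day 2 and day 4 groups. High cells were 3 of 54, 2 of 54 and 4 of 36, the groups overlapped, and the difference of day 4 from untreated cells was 0.38, below the 0.45 of all measured genes.

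In the remaining comparisons no member was called. At day 2 against untreated cells 0 of the 10 genes were called higher and 0 lower, where 3.89% and 0.0576% of all measured genes were (338 and 5 genes, or 161 and 30 with their median taken off). At day 4 against day 2 it was 0 and 0, where 9.57% and 0.864% were (831 and 75 genes, or 513 and 191). The median difference over the 10 genes was 0.06, 0.21 and -0.05 for day 4 against untreated cells, day 2 against untreated cells and day 4 against day 2, beside 0.45, 0.21 and 0.25 over all measured genes. These comparisons share cells, so their values are not independent of each other. In the first and last of them, 7 of the 10 genes lay below the median of all measured genes.

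Low readings below 20 FPKM were common for most members and are given as values only. Of the 89 cells low for Hmox1 that shared a plate column with a high cell, 80 had a read (89.9%), against 19 of the 24 low cells in columns without one (79.2%). For Tfrc these were 11 of 21 cells (52.4%) against 26 of 120 (21.7%), and for Slc11a2 44 of 59 (74.6%) against 35 of 72 (48.6%). For Blvrb the order was the other way, at 95 of 102 (93.1%) against 8 of 8. The source of these reads was not tested.

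Correlations between the 10 genes across cells were weak. After taking out time point, plate and the number of detected genes, the 45 pairs had correlations from -0.23 to 0.27 across all cells, and 43 were within 0.2 of 0. These values share the same libraries and depth. The highest was that of Hmox1 with Blvrb, and it was 0.17 without the border-macrophage-like cells. Of 31 cells high for Hmox1 and 34 high for Blvrb, 18 were high for both, 8 of them border-macrophage-like. The lowest correlation was that of Ftl1 with Slc11a1. Tfrc, Slc11a2, Slc40a1 and Aco1 reached 1 FPKM in only 11, 20, 20 and 16 cells, so a low correlation of these genes says little.

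By the same measure, the genes most like Fth1 were Tmsb4x (r = 0.55), which encodes a peptide that binds actin, Mir682 (0.55) and Fcer1g (0.50), a signalling chain of Fc receptors, over all cells. Those most like Ftl1 were Mir692-3 (0.96), Mir692-2 (0.94) and Mir692-1 (0.77), rows in which over 97% of the values above 0 were not whole reads. Mir682 had 96.5% such values. Mir692-3 and Mir692-2 are among the 10 rows that followed Ftl1 above, so their correlations cannot be told apart from shared reads. For the other members the best match stayed below 0.5, from 0.38 for Ncoa4 with Tiparp to 0.48 for Slc40a1 with Tubgcp5.

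Other genes of the same pathways were counted in 5 lists. At day 4 against untreated cells, 0 of 9 measured genes of other iron transport and sensing were called higher (25 listed, median -0.01) and 0 of 8 of other heme uptake, transport and breakdown (16 listed, median 0.52). In heme synthesis 2 of 6 were (9 listed, median 0.30), in oxidative stress genes controlled by Nrf2 2 of 11 (16 listed, median 0.66), and in iron-sulphur cluster assembly 4 of 13 (16 listed, median 0.77). No gene of these lists was called lower, and the shares stand beside the 18.9% of all measured genes. At day 2 against untreated cells the counts were 0 of 9, 1 of 8, 0 of 6, 1 of 11 and 1 of 13, beside 3.89% of all measured genes. At day 4 against day 2 they were 0 of 9, 0 of 8, 2 of 6, 1 of 11 and 3 of 13, beside 9.57%.

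The largest of these differences was that of Txn1, which encodes the redox protein thioredoxin. Its mean log2 level was 2.81 ± 2.54 without crush, 4.60 ± 3.63 at day 2 and 5.78 ± 3.18 at day 4. The difference from untreated cells was 2.98 at day 4 (2.72, 4.20 and 2.01 in the plates) and 1.80 at day 2 (1.61, 1.74 and 2.03), and it was called under all 13 alternatives at both times. Of these 13, the one with no filter repeats the main calculation for a single gene, so it could not change a call. At day 2 neither could leaving out the cell with the lowest Fth1, a cell of day 4. Prdx1, a peroxiredoxin that Txn1 protein keeps reduced, was at 7.95 ± 1.86 at day 4 and 5.45 ± 3.06 without crush. Its difference of 2.49 (3.33, 2.35 and 1.79 in the plates) was called under 12 of 13 alternatives, though 75.7% of its values above 0 were not whole reads. Its difference of day 4 from day 2 was 1.79, called under 11 of 13.

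Of the enzymes of heme synthesis, Alad, which joins aminolevulinic acid into the first ring, differed by 1.76 at day 4 from untreated cells (mean 36.4 against 1.22 FPKM). It was called under 10 of the 13 alternatives. With detected genes as a covariate the difference was 0.87, under the size of a call. Against day 2 it was 1.31, and 0.88 with the covariate, and it was called under 8 of 13. In iron-sulphur assembly, Iscu, the scaffold on which clusters form, differed by 1.62, Nfs1, which supplies sulphur, by 1.12, Isca2 by 1.12 and Bola3 by 1.01. With detected genes as a covariate, Iscu stood at 1.04 and remained called, whereas Nfs1, Isca2 and Bola3 stood at 0.50, 0.07 and 0.59. As a log2 of the mean FPKM the difference of Iscu was -0.09 (89.7 FPKM at day 4 against 95.9 without crush), and 64.6% of its values above 0 were not whole reads. At day 2, Iscu differed from untreated cells by 1.09 and Hmox2, the constitutive heme oxygenase, by 1.16. Both were called under 7 of the 13 alternatives, and stood at 0.78 and 0.52 with the covariate and at 0.88 and 0.95 after centring on all measured genes. Against day 2, Hspa9, a mitochondrial chaperone, differed at day 4 by 1.43, Bola3 by 1.35 and Isca2 by 1.28. With the covariate these were 0.97, 1.15 and 0.78, so that Bola3 remained called, and Hspa9 and Isca2 were also not called without plate 2.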

How the data were processed

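Single sorted cells were lysed and their cDNA amplified and tagmented with the Nextera XT kit, per the labels' protocols. The tools were STAR 2.7.2b, featureCounts 1.6.1, cutadapt 1.16, Trimmomatic 0.36 and Trim Galore 0.4.4, and the builds GRCm38.p6 and mm10, per the submitters' processing notes. Their settings were not given in the sources used here. FPKM values were deposited by the authors in 1 table of 55364 rows, and FPKM times length summed to 1000000000 in each cell. Of 110 rows that repeat a symbol, the one with the highest mean was kept. Each cell was grouped by its labels.

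The step between low values in a cell gave its depth. A median of 59.3% of the values above 0 were whole reads (within 0.01 read), so no count model was fitted. The labels mention no molecular identifiers, so intervals and floors (3 counts) cover counting error only. Levels are the mean of log2(FPKM + 1) over cells, which understates the change of low genes. A call needed a pooled difference of at least 1 and the same sign in 3 plates. Pathway genes were named when measured and called, up to 4 per list and comparison, and genes like a member by the highest correlations of at least 0.5, after leaving out genes at 0 in over 50% of cells, predicted, pseudogene, ribosomal and mitochondrial names and overlapping exons. The members and lists were chosen with earlier results of these data known. Alternatives were pseudocounts of 0.1 and 10, the log2 of the mean FPKM, the median over cells, no filter, detected genes per cell as a covariate, centring on all measured genes, plate as a block, leaving out each plate, the border-macrophage-like cells, cells under 1000000 reads or the cell with the lowest Fth1, other thresholds for a high cell, and adding copies to the ferritin rows. The procedure was tested on simulated data, drawn alike for all groups and plates apart from chosen genes raised at day 4. That test therefore does not cover plate effects or a shift in the number of detected genes. Python 3.11.15, numpy 2.4.6, pandas 2.3.3, scipy 1.17.1 and matplotlib 3.10.9 were used, with GENCODE M21, in which the gene positions of the members are those of the table. Some genes of the marker and pathway lists are counted with their list and are not reported by name here.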

Additional observations from a re-analysis of the deposited data

How the results depend on the processing

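Of 390 recomputed differences of the 10 genes (30 differences, 13 alternatives), 361 moved by less than the SD between plates and 28 by more. The other one was the called difference of Slc11a1 at day 4 against untreated cells, which changed sign to -0.286 with detected genes as a covariate. Some of the 361 could not move, since with no filter each difference of a member is the same calculation again. Leaving out the cell with the lowest Fth1, a cell of day 4, also cannot change day 2 against untreated cells. With differences under the size of a call included, 71 of the 390 had the other sign, spread over 23 of the 30, most often Slc11a2 at day 4 against untreated cells (7 alternatives) and at day 2 (6) and Hmox1 at day 4 against day 2 (6). At day 4 against untreated cells, 1 gene was called higher as reported. The number was 2 with a pseudocount of 0.1 and without plate 3 (Tfrc and Slc11a1 each time), 2 without plate 1 (Slc11a1 and Hmox1), 0 with a pseudocount of 10, the median over cells, the covariate, centring on all measured genes or without plate 2, and 1 with the log2 of the mean FPKM, which was Tfrc and not Slc11a1. At day 2 against untreated cells 1 was called higher without plate 1 (Hmox1). At day 4 against day 2, 1 was called higher with a pseudocount of 0.1 or the log2 of the mean FPKM (Tfrc), without plate 3 (Hmox1) and without border-macrophage-like cells (Slc11a1), and 1 lower without plate 2 (Blvrb). Centred on all measured genes, the median of the 10 was -0.384 at day 4 against untreated cells and -0.303 against day 2, where it was 0.229 without plate 3. Members with a larger share of high cells numbered 8 at 1 FPKM against 5 at 20 FPKM for day 2 against untreated cells, and 3 at 1 FPKM and 3 at 100 FPKM against 5 for day 4 against day 2. The same count over all measured genes is not given here, so these numbers are no result about the members. Genes at 1 FPKM or more also numbered 2792, 3469 and 3957.5 at the median in the untreated, day 2 and day 4 groups. The log2 ratio of the ferritin chains was -0.991 at day 2 with named pseudogene rows, and -1.50, -1.73 and -1.32 in the untreated, day 2 and day 4 groups with the rows that follow Ftl1. The cause of these shifts was not tested.

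Over all measured genes, 1636 were called higher and 30 lower at day 4 against untreated cells, but 2786 and 71 with a pseudocount of 0.1, 452 and 13 with 10, 1160 and 528 with the log2 of the mean FPKM, 504 and 264 with the covariate and 784 and 162 after centring. At day 2 the 338 and 5 became 823 and 33, 51 and 0, 698 and 484, 85 and 73, and 161 and 30 under the same settings, and for day 4 against day 2 the 831 and 75 became 1573 and 217, 224 and 14, 900 and 529, 446 and 218, and 513 and 191. Without plates 1, 2 and 3 in turn, the day 2 counts were 828 and 18, 420 and 54, and 378 and 41. Those of day 4 against untreated cells were 2197 and 58, 1438 and 97, and 2201 and 54, and those of day 4 against day 2 were 1033 and 168, 788 and 180, and 1602 and 86. For day 4 against day 2 the median over cells gave 655 and 35, and for day 2 the cells that were not border-macrophage-like gave 351 and 14. With plate as a replicate block, added after the data were seen, every difference moved by less than 1e-06, since each plate holds the groups in the same proportions: the medians of the 10 stayed at 0.06, 0.21 and -0.05 for day 4 against untreated cells, day 2 against untreated cells and day 4 against day 2, and 1, 0 and 0 members were called. At the lowest depth, 20 FPKM is 5.09 reads of Ftl1 and 35.6 reads of Ncoa4.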
